A study of Mus musculus with 8 samples.

Results

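Genes of myostatin and activin signalling were followed in quadriceps femoris (QF) muscle of mice: the ligand Mstn, the antagonists Fst and Fstl3, the follistatin-like gene Fstl1, the receptors Acvr2a, Acvr2b and Acvr1b, and the signal carriers Smad2, Smad3 and Smad7. They were chosen by name, for their place in the pathway, with earlier results of these data known. They make up 10 of the 14012 genes in the deposited table. QF, a large muscle of the thigh, came from 4 mice labelled as the skeletal muscle knockout (Grpel1 smk -/-) and 4 labelled as control (Grpel1 flox/flox), with 1 polyA RNA library per mouse. All 8 mice carry the floxed Grpel1 gene, and in the knockouts a tamoxifen-switched Cre recombinase under the human α-skeletal actin promoter removes it in muscle fibres, so other cells of the muscle keep it. The labels give neither the age of the mice nor whether the controls received tamoxifen, and any effect of the drug then cannot be told apart from that of the genotype.

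Grpel1, the co-chaperone of mitochondrial Hsp70 in protein import, was read first. It lay between 64.1 and 71.2 CPM (gene counts scaled to the library size and its composition) in control libraries and between 59.9 and 71.9 CPM in the knockouts, with a log2 fold change of -0.066 (SE 0.078, edgeR with Benjamini-Hochberg adjustment, adjusted p = 0.49). The whole-gene count therefore does not check the labels, and each direction below is that of the libraries labelled knockout against those labelled control. Library totals ran from 16017565 to 20361144 counts, at which 3 counts, the most a gene at 0 allows, were worth 0.119 to 0.242 CPM (counting error only). Pairs of libraries in a group had a chi-square per degree of freedom of 16.8 to 42.5 over genes, far above sampling noise, so none repeats another. At an adjusted p under 0.01, 3303 genes were higher and 2962 lower in the knockouts, and with library totals alone in place of the composition factors these were 8498 and 873.

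Myostatin, the product of Mstn, is secreted mainly by muscle fibres and restrains muscle growth. It and the activins bind type II receptors (Acvr2a, Acvr2b), which switch on type I receptors such as Acvr1b, and these phosphorylate Smad2 and Smad3, which join Smad4 and enter the nucleus to set the transcription of target genes. Follistatin (Fst) and Fstl3 bind the ligands and keep them from the receptors, and Smad7, itself a target, turns the signal down. Mice and cattle that lack myostatin grow very large muscles.

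The starts of 4 genes that were lower in the knockouts are shown because these members moved together, from the ligand (Mstn) through the receptors (Acvr1b, Acvr2b) to the signal carrier (Smad3). Each line holds the 250 bases before the start of the gene as RefSeq gives it on GRCm38.p6, written 5′ to 3′ on the strand of the gene. The windows are chr1:53061390-53061639 on the plus strand for Mstn, chr15:101173822-101174071 on the plus strand for Acvr1b, chr9:119401928-119402177 on the plus strand for Acvr2b and chr9:63757995-63758244 on the minus strand for Smad3. Capitals mark E-boxes (CANNTG) and the TATA box (TATAAA) in Mstn, and GC boxes (GGGCGG on either strand) in the other windows.
Mstn: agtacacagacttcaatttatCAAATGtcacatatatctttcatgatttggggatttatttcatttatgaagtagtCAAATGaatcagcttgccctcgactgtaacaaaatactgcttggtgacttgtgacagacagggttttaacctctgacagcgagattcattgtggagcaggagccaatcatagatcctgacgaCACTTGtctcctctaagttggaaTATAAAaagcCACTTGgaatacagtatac
Acvr1b: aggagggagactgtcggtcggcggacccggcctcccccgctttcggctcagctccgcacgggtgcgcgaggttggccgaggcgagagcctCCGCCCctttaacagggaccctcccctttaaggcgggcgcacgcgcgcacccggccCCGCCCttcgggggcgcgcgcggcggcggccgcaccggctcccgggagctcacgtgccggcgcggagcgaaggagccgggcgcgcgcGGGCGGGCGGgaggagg
Acvr2b: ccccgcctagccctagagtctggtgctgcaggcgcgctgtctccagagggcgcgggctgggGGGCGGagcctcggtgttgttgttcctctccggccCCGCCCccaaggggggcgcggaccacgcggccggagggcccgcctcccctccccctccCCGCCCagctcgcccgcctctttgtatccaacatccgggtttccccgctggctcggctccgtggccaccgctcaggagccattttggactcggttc
Smad3: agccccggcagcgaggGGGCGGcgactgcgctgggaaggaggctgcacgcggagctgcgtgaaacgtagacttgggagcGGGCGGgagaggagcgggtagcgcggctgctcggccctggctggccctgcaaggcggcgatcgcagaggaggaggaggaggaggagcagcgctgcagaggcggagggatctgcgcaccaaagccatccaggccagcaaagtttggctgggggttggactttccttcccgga

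The Mstn window stood apart in base composition. It held 38.4% G and C, at the 9.70th percentile of 32851 RefSeq promoters (median 52.4%), and 3 CpG pairs. The windows of the 6 other members matched in the table ran from 68.0% in Fstl1 to 82.0% in Acvr2a, with 78.8% in Acvr1b, 72.8% in Acvr2b, 71.2% in Fstl3 and 69.2% in Smad3. Mstn had a TATA box beginning 29 bases before the start, which 12.4% of all promoters hold, and E-boxes, the letters that myogenic factors and their relatives bind, beginning 229, 174, 52 and 19 bases before it, where 66.2% of promoters hold at least 1. It had 1 CAGA box (CAGACA), a Smad3 and Smad4 motif that 17.1% of promoters hold and that contains the short Smad box (GTCT, read here on the other strand; 82.9% of promoters), and 1 CCAAT box (CCAAT, 33.8%). The GC box, held by 32.7% of promoters, occurred 4 times in Acvr1b, 3 times in Acvr2b and 2 times in Smad3, and the last pair in Acvr1b overlap. Acvr1b, Acvr2b and Smad3 had no CAGA box, and Acvr1b had 1 E-box, which is not marked. These motifs were not particular to Mstn. The Fstl3 window also held a TATA box beginning 29 bases before the start, read on the other strand, with 3 E-boxes and 1 CAGA box. Of the motifs searched on both strands in these windows, none of the 7 matched members held the tandem Smad box (GTCTAGAC, 0.167% of promoters, itself made of Smad boxes), the FoxO site (GTAAACA, 3.17%), the CRE (TGACGTCA, 1.55%) or the ATF4 element (TGATGNAAN, 3.44%), and 1 of them, Acvr2b, held a MEF2 site (CTA and TAG parted by any 4 bases, 3.20%). Such matches describe letters and not binding. Fst, Smad2 and Smad7 were not matched.

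Of the 10 genes, 7 passed the test, 6 lower and 1 higher in the knockouts. Those that fell were Mstn, Fstl1, Acvr1b, Acvr2a, Acvr2b and Smad3, and the gene that rose was Fst, while Smad2, Smad7 and Fstl3 did not pass. Over all 14012 genes 44.7% passed the same test, with 21.1% of all genes lower and 23.6% higher. The median log2 fold change of the 10 was -0.93, against 0.065 over all genes. Since the 10 were chosen with earlier results of these data known, these comparisons are description and not a test. At an adjusted p under 0.05, which 59.1% of all genes passed, again 6 members were lower and 1 higher. The libraries of the 2 groups did not overlap for 7 members, 6 with every knockout below every control (24.4% of all genes) and 1 with every knockout above (29%), where 53.4% of all genes did not overlap in either direction.

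**Figure D1:**
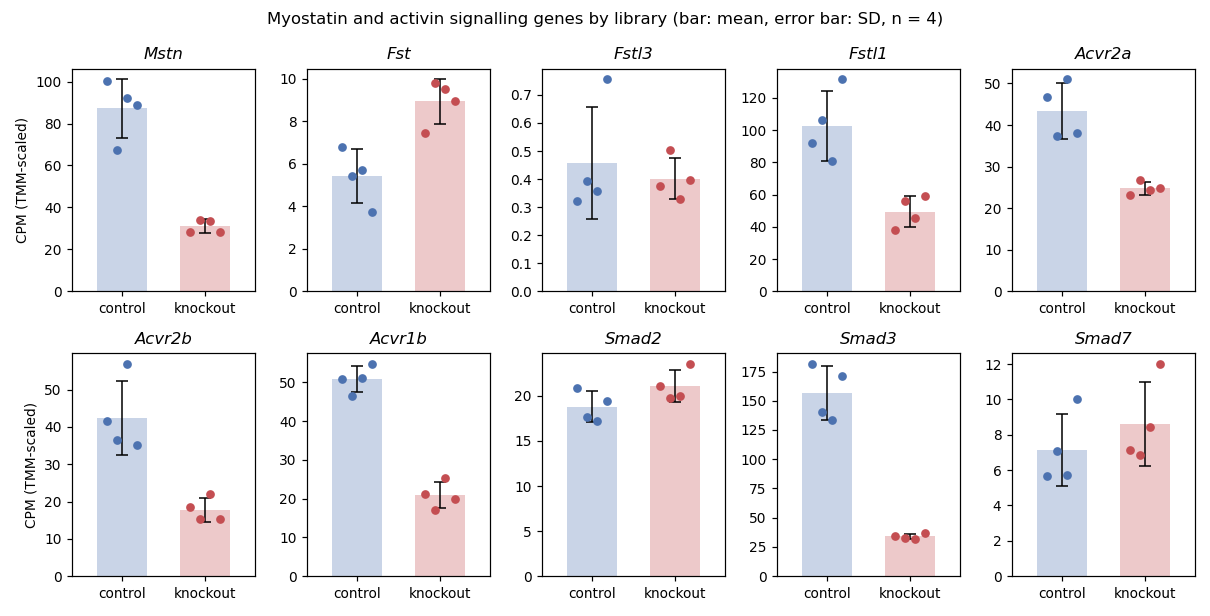
CPM of the 10 genes in each library (y axes start at 0 and differ between panels), with 4 control and 4 knockout libraries as points, the mean as a bar and the SD as an error bar. Mstn, Fstl1, Acvr2a, Acvr2b, Acvr1b and Smad3 have all 4 knockouts below the controls, Fst has all 4 above, and the groups overlap for Fstl3, Smad2 and Smad7.

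Mstn (Entrez Gene 17700, chromosome 1 from 53061640 to 53068079 of GRCm38, plus strand) was read at 100.1, 67.5, 92.4 and 88.8 CPM in control replicates 1 to 4. In knockout replicates 1 to 4 it was read at 28.2, 34.1, 33.6 and 28.1 CPM. Every knockout lay below the lowest control, and the knockouts lay close together. The mean fell from 87.2 ± 13.96 to 30.99 ± 3.27 CPM (SD, n = 4 each), a 2.81-fold lower level, with a log2 fold change of -1.49 (SE 0.13, 95% interval -1.77 to -1.21, edgeR with Benjamini-Hochberg adjustment, adjusted p = 5.8e-06). In the order of all 14012 log2 fold changes from the lowest, Mstn stood at 560. In whole muscle RNA, fewer cells of a type and less RNA per cell cannot be told apart, which holds for every gene here.

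The fibres that make myostatin also changed in their own markers. The summed level of 13 fibre markers was 225880 to 288972 CPM in control libraries and 79796 to 111116 CPM in the knockouts, so the muscle identity of all 8 libraries was plain, and 9 markers were lower and 2 higher, with a median log2 fold change of -1.31. Myh4, the fast myosin heavy chain of type IIb fibres, took 7.32 to 9.01% of the counts in control libraries and 2.15 to 3.20% in the knockouts, with a log2 fold change of -2.34. The 2 markers that were higher, named after their values were seen, were Myh1 and Des. Myh1, another fast myosin heavy chain, rose from 7246 to 16074 CPM in mean level (log2 fold change 1.15), and Des had a log2 fold change of 0.82. No marker of any list used here was at 0 in a library. The part of the fibre markers in the result for Mstn was not tested.

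Among the antagonists, Fst rose and Fstl3 was near the limit of detection. Fst (Entrez Gene 14313, chromosome 13 from 114452262 to 114458951, minus strand), whose product follistatin binds activins and myostatin tightly, was read at 6.79, 5.43, 5.73 and 3.72 CPM in the controls. The knockouts gave 7.46, 9.80, 9.54 and 8.98 CPM. All 4 knockouts lay above all 4 controls, but knockout replicate 1 stood only slightly above control replicate 1. The mean rose from 5.42 ± 1.27 to 8.95 ± 1.04 CPM, 1.66-fold, with a log2 fold change of 0.73 (SE 0.18, 95% interval 0.34 to 1.12, edgeR with Benjamini-Hochberg adjustment, adjusted p = 0.0050). This rested on 59 to 84 counts per control library and 179 to 231 per knockout library. Leaving out 1 library, whether control replicate 2 or 3, or knockout replicate 2, 3 or 4, took the adjusted p of Fst above 0.01, to 0.0105 to 0.0159, with a log2 fold change of 0.67 to 0.76. It was 0.029, with a log2 fold change of 0.55, without control replicates 3 and 4, which had the highest sums of tendon markers.

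Fstl3 (Entrez Gene 83554, chromosome 10 from 79777274 to 79782630, plus strand), a secreted relative of follistatin that also binds myostatin in serum, gave 4, 6, 5 and 12 counts in the controls. It gave 9, 11, 8 and 10 counts in the knockouts. The groups overlapped, and control replicate 4 stood above the others on the CPM scale. Mean levels were 0.457 ± 0.201 and 0.402 ± 0.0736 CPM, and the 95% interval of the log2 fold change, -1.002 to 0.57, was wide at this depth (log2 fold change -0.22, SE 0.35, edgeR with Benjamini-Hochberg adjustment, adjusted p = 0.62). Without control replicate 4 the log2 fold change turned to 0.15. Its exons share 1157 bases with those of Prss57 on the other strand, and the exons of Fst share 115 bases with an antisense gene. Whether the counting used strand is not stated.

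Fstl1 (Entrez Gene 14314, chromosome 16 from 37777055 to 37836516, plus strand) is a secreted glycoprotein of connective tissue cells and muscle that shares the follistatin domain. It is not an established myostatin trap. Its levels were 91.9, 106, 80.8 and 132 CPM in control libraries and 37.8, 55.7, 45.2 and 58.9 CPM in the knockouts. Every knockout lay below every control. The mean fell from 103 ± 21.9 to 49.4 ± 9.72 CPM, a 2.08-fold lower level, with a log2 fold change of -1.06 (SE 0.17, 95% interval -1.44 to -0.67, edgeR with Benjamini-Hochberg adjustment, adjusted p = 0.00049). Markers of fibro-adipogenic progenitors and fibroblasts moved in the same direction. Of 11, 8 were lower and 0 higher by edgeR (9 and 0 by DESeq2, 9 and 1 at an unadjusted p under 0.05), their sum went from 1937 to 2809 CPM in the controls to 811 to 1206 CPM in the knockouts, and Pdgfra, their receptor marker, had a log2 fold change of -0.15 (SE 0.14, adjusted p = 0.39). Their part in the result for Fstl1 was not tested.

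The 3 receptor genes all fell. Acvr1b (Entrez Gene 11479, chromosome 15 from 101174125 to 101212601, plus strand), the type I receptor ALK4, was read at 50.9, 46.6, 51.1 and 54.8 CPM in the controls. In the knockouts it was read at 21.3, 17.1, 25.4 and 20.03 CPM. The groups were far apart, with little spread within either. The mean went from 50.8 ± 3.33 to 20.96 ± 3.46 CPM, 2.42-fold lower, with a log2 fold change of -1.28 (SE 0.11, 95% interval -1.53 to -1.02, edgeR with Benjamini-Hochberg adjustment, adjusted p = 8.2e-06).

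Acvr2b (Entrez Gene 11481, chromosome 9 from 119402178 to 119442148, plus strand), the type II receptor that binds myostatin with the higher affinity, gave 41.4, 36.5, 56.8 and 35.2 CPM in control libraries and 18.5, 15.4, 22.04 and 15.3 CPM in the knockouts. Control replicate 3 was the highest and every knockout lay below every control. Its mean went from 42.5 ± 9.94 to 17.8 ± 3.18 CPM, 2.38-fold lower (log2 fold change -1.25, SE 0.17, edgeR with Benjamini-Hochberg adjustment, adjusted p = 0.00014). Acvr2a (Entrez Gene 11480, chromosome 2 from 48814109 to 48903264, plus strand), the other type II receptor, gave 46.9, 37.2, 51.0 and 38.1 CPM in control libraries and 23.1, 26.9, 24.3 and 24.96 CPM in the knockouts. Again no knockout reached a control, though the gap was narrower. Its mean went from 43.3 ± 6.73 to 24.8 ± 1.59 CPM, 1.74-fold lower (log2 fold change -0.80, SE 0.11, 95% interval -1.05 to -0.56, edgeR with Benjamini-Hochberg adjustment, adjusted p = 0.00013). In raw counts Acvr2b overlapped between the groups, at 513 to 794 in control libraries and 336 to 534 in the knockouts. So did Fstl1, at 1129 to 2089 and 906 to 1482. Acvr2a overlapped as well, at 569 to 713 in control libraries and 553 to 628 in the knockouts, so its fall is one relative to the other genes. Its exons share 446 bases with those of Orc4 on the other strand, which had 3385 counts over the 8 libraries.

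The receptor-activated Smads differed. Smad3 (Entrez Gene 17127, chromosome 9 from 63646767 to 63757994, minus strand) had the largest fall of the 10 genes, at position 206 of the 14012 from the lowest log2 fold change. The controls gave 181, 140, 134 and 171 CPM. The knockouts gave 34.6, 32.7, 32.0 and 37.0 CPM. The knockouts were tightly grouped and far below the lowest control. The mean went from 157 ± 23.2 to 34.04 ± 2.26 CPM, 4.599-fold lower, with a log2 fold change of -2.20 (SE 0.11, 95% interval -2.45 to -1.96, edgeR with Benjamini-Hochberg adjustment, adjusted p = 3.2e-07).

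Smad2, its close relative, showed no such fall. It was read at 20.9, 17.6, 17.2 and 19.5 CPM in control libraries and at 21.1, 19.7, 19.9 and 23.5 CPM in the knockouts. The groups overlapped, with control replicate 1 inside the knockout range. The means were 18.8 ± 1.71 and 21.1 ± 1.74 CPM, and the 95% interval of the log2 fold change ran from -0.041 to 0.37 (0.17, SE 0.092, edgeR with Benjamini-Hochberg adjustment, adjusted p = 0.15). The inhibitory Smad7, which recruits ubiquitin ligases to the type I receptor, was read at 5.66, 7.07, 5.73 and 10.02 CPM in the controls. The knockouts gave 7.13, 6.87, 8.46 and 12.004 CPM. Its groups overlapped broadly, with replicate 4 the highest in each. The means were 7.12 ± 2.04 and 8.62 ± 2.36 CPM, and the 95% interval of the log2 fold change ran from -0.24 to 0.78 (0.27, SE 0.23, edgeR with Benjamini-Hochberg adjustment, adjusted p = 0.33). Smad2 (Entrez Gene 17126, from 76241701 to 76311747) and Smad7 (Entrez Gene 17131, from 75367365 to 75395934) both lie on the plus strand of chromosome 18.

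**Figure D2:**
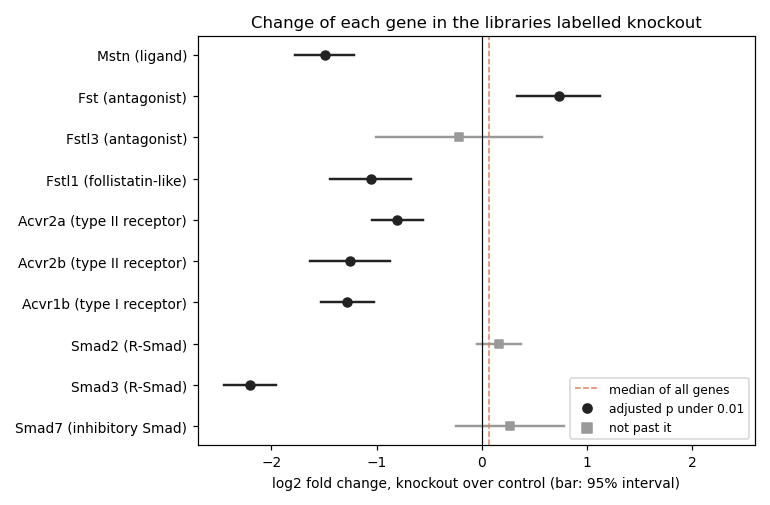
Log2 fold change of each gene, knockout over control (x axis), with its 95% interval as a bar. The 7 genes past the adjusted p of 0.01 are black, from -2.20 in Smad3 to 0.73 in Fst, the intervals of Fstl3, Smad2 and Smad7 span 0, and the dashed line is the median of all genes (0.065).

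Levels of different genes were set side by side per length, with the deposited FPKM (fragments per kilobase of exon). Their scaling covers library size and composition and not depth alone, so a change of FPKM between the groups carries it, as the CPM do. In the controls Mstn (32.5 ± 5.20 FPKM), Smad3 (31.1 ± 4.68) and Fstl1 (28.7 ± 6.14) led, with ranges that overlapped. Acvr1b (15.7), Acvr2a (7.70) and Acvr2b (4.02) followed with ranges apart from each other, then Smad2 (2.08), Fst (1.91) and Smad7 (1.62), whose ranges overlapped, and Fstl3 was last (0.236). In the knockouts the mean FPKM order was Fstl1 (13.4), Mstn (11.2), Smad3 (6.55), Acvr1b (6.28), Acvr2a (4.28), Fst (3.06), Smad2 (2.26), Smad7 (1.90), Acvr2b (1.64) and Fstl3 (0.201). There the ranges overlapped between Fstl1 and Mstn, between Smad3 and Acvr1b, and between Smad7 and each of Fst, Smad2 and Acvr2b. Among the 14012 genes ordered from the highest FPKM, Mstn went from position 1743 to 4042 and Smad3 from 1817 to 5688, while Fst went from 9271 to 8101. The length is that of all annotated exons, from 1953 bases in Fstl3 to 10666 in Acvr2b, and a gene that uses few of them reads low.

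Ratios of FPKM within a library do not depend on how libraries are scaled. Smad3 over Smad2 was 13.9 to 15.8 in control libraries and 2.82 to 2.97 in the knockouts, so that the mean went from 14.9 ± 0.922 to 2.90 ± 0.0658 (SD, n = 4 each). Smad3 over its inhibitor Smad7 went from 14.9 to 27.98 in the controls to 2.69 to 4.23 in the knockouts. Mstn over its antagonist Fst was 13.1 to 25.3 in control libraries and 3.31 to 3.99 in the knockouts. For all 3 ratios every knockout was below every control. Among the receptors, Acvr2a over Acvr2b was 1.69 to 2.12 in control libraries and 2.07 to 3.28 in the knockouts, and Acvr1b over Acvr2b was 2.93 to 5.07 and 3.61 to 4.25. Those receptor ratios overlapped between the groups, as did Acvr1b over Acvr2a (1.74 to 2.49 and 1.10 to 1.81).

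**Figure D3:**
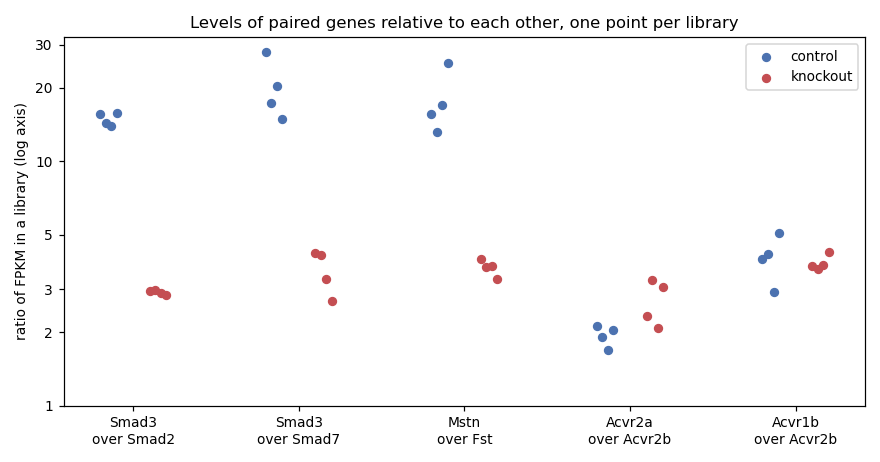
Ratio of the FPKM of gene pairs in each library (log axis), controls in blue and knockouts in red, 4 points each. Smad3 over Smad2, Smad3 over Smad7 and Mstn over Fst part the groups, with Smad3 over Smad2 at 13.9 to 15.8 in control libraries and 2.82 to 2.97 in the knockouts, and the receptor ratios overlap.

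The scaling of the libraries moves every log2 fold change by about the same amount. With library totals alone the median of all genes was 0.73 in place of 0.065. Relative to that median the members kept their values, with Mstn at -1.55 (-1.56 under the composition factors), Smad3 at -2.27 (-2.27), Acvr1b at -1.35 (-1.34), Acvr2b at -1.31 (-1.32), Fstl1 at -1.12 (-1.12), Acvr2a at -0.86 (-0.87), Fst at 0.67 (0.67) and Smad2 at 0.10 (0.10). Without the median taken off, library totals alone left Mstn, Acvr1b, Acvr2b and Smad3 lower and made Fst, Smad2 and Smad7 higher, and the falls of Fstl1 (log2 fold change -0.39, adjusted p = 0.12 by edgeR) and Acvr2a (-0.12, adjusted p = 0.28) no longer passed.

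**Figure D4:**
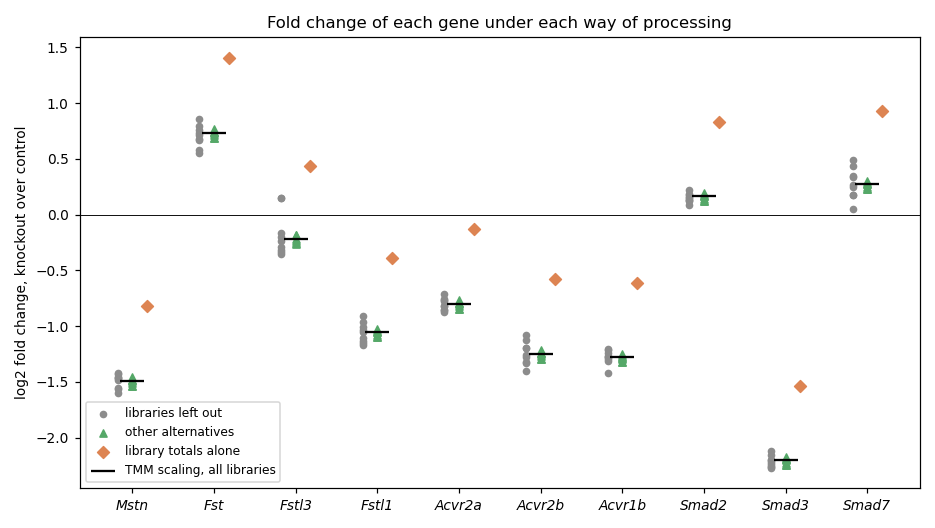
Log2 fold change of each gene (y axis) under each way of processing, with the TMM-scaled value from all libraries as a line, fits with libraries left out in grey, library totals alone as orange diamonds and the other alternatives as green triangles. Library totals alone raise every gene, to -0.82 in Mstn and -1.53 in Smad3, and with libraries left out the widest spreads are those of Fstl3 (4 to 12 counts per library) and Smad7 (0.048 to 0.48 with 1 library left out).

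The rest of the pathway was read through lists by role, which together hold 84 measured genes besides the members. Of these, 14 were higher and 32 lower in the knockouts, and with library totals alone 35 and 8. Over all 14012 genes 23.6% were higher and 21.1% lower, 44.7% in either direction. The share that passed was 42.9% in the other ligands, 66.7% in maturation and binding, and 22.2% in the other receptors. It was 62.5% in Smad partners and brakes, 58.8% in Smad2/3 targets and 52.4% in the BMP branch. These shares are description and were not tested. With library totals alone the numbers higher and lower were 3 and 1 in the other ligands, 2 and 1 in maturation and binding, and 5 and 0 in the other receptors. They were 9 and 3 in Smad partners and brakes, 7 and 3 in Smad2/3 targets, and 10 and 1 in the BMP branch. Among 7 other ligands of the branch 0 were higher and 3 lower by edgeR and by DESeq2 (median log2 fold change -0.16), and 1 was higher at an unadjusted p under 0.05. Gdf11, the ligand closest to myostatin in sequence, went from 10.5 to 1.94 CPM (log2 fold change -2.42, SE 0.29, edgeR with Benjamini-Hochberg adjustment, adjusted p = 6.2e-05). Each knockout, at 1.01 to 2.77 CPM, was below each control, at 6.87 to 13.99 CPM. Tgfb3 went from 42.0 to 23.8 CPM (-0.82, SE 0.11, adjusted p = 0.00017), a call that library totals alone removed. The third was Inhba, the activin A subunit, chosen after its values were seen. Its 4 to 22 counts per control and 2 to 9 per knockout overlapped, and it passed narrowly (adjusted p = 0.0099). Leaving out control replicate 2, 3 or 4, or knockout replicate 1, 2 or 3, took its adjusted p to between 0.012 and 0.036.

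Among 12 genes of ligand maturation and extracellular binding, 7 were lower and 1 higher (median -0.50). Fmod, a collagen-binding proteoglycan that also binds TGF-β, was at 48.1 to 314 CPM in control libraries and 20.1 to 35.7 CPM in the knockouts (log2 fold change -2.44, SE 0.50, edgeR with Benjamini-Hochberg adjustment, adjusted p = 0.0021). Its controls ranged widely and were highest in replicates 3 and 4 (314 and 177 CPM). The summed tendon markers, a list that includes Fmod itself, were also highest there (597 and 537 CPM). They were 148 and 181 CPM in the other controls and 65.5 to 108 CPM in the knockouts. The part of those markers in the result for Fmod was not tested. The log2 fold change of Fmod was -1.84 without control replicate 3 and -1.18 (adjusted p = 0.0065) without both, and with robust dispersion its adjusted p was 0.013. Tcap, the titin cap protein that binds myostatin, went from 1469 to 2126 CPM in the controls to 675 to 1120 CPM in the knockouts (-1.10, SE 0.19, adjusted p = 0.00067), a call lost with library totals alone (-0.45, adjusted p = 0.050). Ltbp4, which tethers latent TGF-β to the matrix, overlapped between the groups at 68.2 to 152 and 44.8 to 70.6 CPM. Its fall (-0.998, SE 0.22, adjusted p = 0.0032) did not pass without control replicate 2 (0.011) or knockout replicate 1 (0.012) or 2 (0.012), and it was -0.76 (0.033) without control replicates 3 and 4 and -0.34 (0.21) with library totals alone. The gene that rose, Wfikkn1, which codes for a binder of myostatin and Gdf11, was chosen after its values were seen. It had 1 to 3 counts in each control and 16 to 27 in each knockout (adjusted p = 0.00038). The number lower in this list was 4 without knockout replicate 1 and 3 without control replicates 3 and 4.

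Of 9 other receptors and co-receptors, 1 was higher and 1 lower (median 0.055). The TGF-β type I receptor gene Tgfbr1, chosen after its values were seen, was at 31.6 to 38.8 CPM in control libraries and 34.7 to 41.2 CPM in the knockouts, with a log2 fold change of 0.047 (adjusted p = 0.69 by edgeR), beside the fall of Acvr1b. With library totals alone the log2 fold change of Tgfbr1 was 0.72, where the median of all genes was 0.73. Tmeff1, a membrane protein that can block Nodal signals, rose from 0.358 to 2.21 CPM in the controls to 3.89 to 6.996 CPM in the knockouts (1.88, SE 0.37, adjusted p = 0.0016). This rested on 5 to 35 counts per control and 85 to 176 per knockout. Eng, the TGF-β co-receptor of endothelial cells, fell from 61.3 to 36.2 CPM (-0.76, SE 0.12, adjusted p = 0.00034), which library totals alone took to -0.097 (adjusted p = 0.56). In endothelial markers 6 of 7 were lower and 0 higher by edgeR (7 and 0 by DESeq2, and at an unadjusted p under 0.05), with sums of 294 to 414 CPM in control libraries and 203 to 233 CPM in the knockouts, and their part in the fall of Eng was not tested. The number lower was 2 without control replicate 3 or knockout replicate 2, and the number higher was 2 without knockout replicate 3.

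Of the 16 Smad partners and brakes, 2 were higher and 8 lower (median -0.24). Tgif1 and Tgif2, nuclear corepressors of Smad2 and Smad3, were the 2 that rose. Tgif1 was at 4.85 to 6.74 CPM in control libraries and 18.7 to 28.3 CPM in the knockouts (log2 fold change 1.88, SE 0.16, edgeR with Benjamini-Hochberg adjustment, adjusted p = 5.7e-06), and Tgif2 rose from 0.846 to 2.45 CPM (1.52, SE 0.22, adjusted p = 0.00019). Tgif2 had 10 to 16 counts per control and 45 to 63 per knockout. Pmepa1, a target of the pathway that sequesters Smad2 and Smad3, fell from 45.6 to 14.2 CPM (-1.68, SE 0.19, adjusted p = 3.8e-05). Smad4, the shared partner, was chosen after its values were seen and was at 61.6 to 68.1 CPM in control libraries and 42.5 to 49.9 CPM in the knockouts (-0.53, SE 0.070, adjusted p = 0.00011). With library totals alone its log2 fold change was 0.13 (adjusted p = 0.068), below the median of all genes in that scaling.

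The 17 Smad2/3 target genes moved both ways, 3 higher and 7 lower (median -0.26), which library totals alone turned to 7 higher and 3 lower. They share Pmepa1, Skil, Smad7 and Bambi with the lists above. Cdkn1a, the p21 brake of the cell cycle, rose from 16.03 to 30.2 CPM in the controls to 232 to 310 CPM in the knockouts (log2 fold change 3.58, SE 0.19, edgeR with Benjamini-Hochberg adjustment, adjusted p = 4.1e-07). Col1a1, a chain of type I collagen and also a fibroblast marker, fell from 295 to 551 CPM in the controls to 79.5 to 169 CPM in the knockouts (-1.92, SE 0.27, adjusted p = 0.00018). Besides Col1a1 and Pmepa1, those lower were Col1a2 (-1.61), Col3a1 (-1.38), Fn1 (-1.60), Cdkn2b (-1.71) and Tagln (-0.71), each as a log2 fold change. These 5 were named after their values were seen, and Col1a2 and Col3a1 are also fibroblast markers. Junb, an AP-1 factor chosen after its values were seen, rose from 9.37 to 26.8 CPM (1.52, SE 0.12, adjusted p = 3.8e-06). Ltbp2, a matrix protein, overlapped at 1.15 to 3.02 and 2.601 to 16.6 CPM. Its rise (2.12, SE 0.51, adjusted p = 0.0049) did not pass without control replicate 1 (0.013), 2 (0.014) or 3 (0.015), knockout replicate 1 (0.013) or 2 (0.013), or control replicates 3 and 4 together (0.039), nor with robust dispersion (0.013).

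The BMP branch, which runs through Smad1, Smad5 and Smad9 and promotes muscle growth where myostatin restrains it, held 6 higher and 5 lower of 21 genes (median -0.17). Noggin (Nog), a secreted BMP trap, was at 1.64 to 7.92 CPM in control libraries and 43.9 to 50.4 CPM in the knockouts (log2 fold change 3.10, SE 0.32, edgeR with Benjamini-Hochberg adjustment, adjusted p = 2.3e-05). Gdf5, a BMP-type ligand made by denervated muscle, had 0, 0, 2 and 5 counts in control libraries and 62 to 73 in the knockouts (adjusted p = 3.9e-05), and no fold is given for so few control counts. Also in the list, chosen after their values were seen, were Smad1 (0.73), Id2 (1.57), Chrd (0.48) and Gdf6 (1 to 2 counts per control and 14 to 26 per knockout) among those higher, and the receptors Acvr1 (-1.10) and Bmpr2 (-0.93), the inhibitory Smad6 (-1.32) and the ligand Bmp6 (-0.74) among those lower, each as a log2 fold change. The falls of Bmp6, Acvr1, Bmpr2 and Smad6 did not pass with library totals alone. Chrd passed narrowly (adjusted p = 0.0079), and its adjusted p was 0.010 to 0.027 with any library but control replicate 3 left out. Bmp6 (adjusted p = 0.0038) gave 0.013 without control replicate 2, 0.012 without control replicate 4 and 0.014 without knockout replicate 4.

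**Figure D5:**
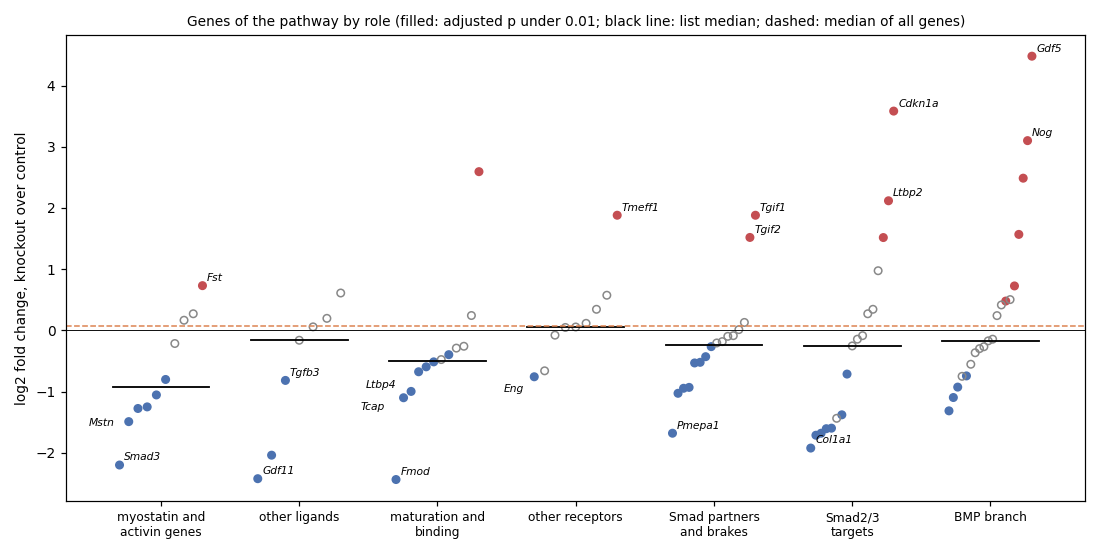
Log2 fold change, knockout over control (y axis), of the 10 genes and of each list of the pathway by role, with filled points past an adjusted p of 0.01, a black line at the median of the list and a dashed line at the median of all genes (0.065). The members have a median of -0.93, the lists lie between -0.50 and 0.055, and the value of Gdf5 rests on controls of 0 to 5 counts (1 gene of the BMP branch is not drawn).

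The genes whose levels followed those of Mstn most closely over the 8 libraries were Usp24 (Pearson r of log2 CPM 0.996), Cul3 (0.996) and Ppp2cb (0.996). Since Mstn parts the groups, any gene that does so with little spread scores high, and 943 of 11520 genes had an r above 0.95. Usp24 went from 163 to 106 CPM, Cul3 from 457 to 226 CPM and Ppp2cb from 43.3 to 30.8 CPM in mean level.

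Markers of other cell types were read beside these results. Of 8 satellite cell and myoblast markers 3 were higher and 2 lower, and those higher include Des, which is also in the list of fibre markers. Pax7 had a log2 fold change of 0.28 (SE 0.21, edgeR with Benjamini-Hochberg adjustment, adjusted p = 0.28). Of 10 macrophage markers 1 was higher and 0 lower by edgeR (4 and 0 by DESeq2, 6 and 0 at an unadjusted p under 0.05), with sums of 78.7 to 212 CPM in control libraries and 177 to 333 CPM in the knockouts. Adipocyte markers (0 of 7 past the test by edgeR and by DESeq2, 1 higher at an unadjusted p under 0.05, sums of 249 to 1497 and 712 to 2591 CPM) and Schwann cell markers (0 of 5 by either tool, 1 higher at an unadjusted p under 0.05, sums of 67.9 to 176 and 91.7 to 142 CPM) overlapped between the groups. Of 7 smooth muscle and pericyte markers 3 were lower and 0 higher by edgeR (3 and 1 by DESeq2 and at an unadjusted p under 0.05), and of 6 tenocyte markers 4 were lower and 0 higher (5 and 0 by both). Their part in the results for the 10 genes was not tested, and without the 2 controls that had the highest tendon marker sums, 6 members were lower and 0 higher.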

How the data were processed

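PolyA RNA of QF muscle was sequenced by the authors as directional libraries and read pairs. Per the labels and the methods, reads demultiplexed with bcl2fastq 2.20.0.422 and trimmed with cutadapt were mapped to GRCm38 with STAR 2.5.4b, and Rsubread on exons gave the deposited raw counts, without duplicate, chimeric, multimapping or poorly mapped reads and without genes under 50 reads in total. The deposited FPKM were made by the authors from these counts, the exon width and a scaling for library size and composition. The authors' DESeq2 1.32.0 columns (mean, log2 fold change and its error, test statistic, p and adjusted p) were not used.

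The counts of all 14012 genes were tested with edgeR 4.0.16 in R 4.3.3 (glmQLFit and glmQLFTest, TMM factors, label only) with Benjamini-Hochberg adjustment at 0.01. SE is the log2 fold change over the root of F, and intervals use the quasi-likelihood degrees of freedom. CPM are on TMM-scaled libraries. P-values measure the spread between mice. The members and lists were chosen with earlier results of these data known. Named were the members, up to 3 genes per list with the largest change past the threshold and a mean of at least 50 counts in the higher group, Grpel1, Myh4, Pdgfra, Pax7, and the 3 genes most correlated with Mstn. Alternatives covered scaling, filters, dispersion, DESeq2 1.42.0, the 20 most abundant genes, a replicate block, an adjusted p of 0.05 and libraries left out. Leaving out the 2 controls with the most tendon marker RNA was chosen after seeing the data. The procedure was tested on simulated data. A few listed genes, such as Nodal, were not analysed here, and 1 gene that the rule names is not reported here.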

Additional observations from a re-analysis of the deposited data

Results flagged for a closer look

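Each group of 4 libraries was looked at for a highest or lowest value whose gap to the next was most of the whole range of the group (the 95% limit of the Dixon test), which chance passes in about 1 of 20 groups, and 4 of 66 groups did. Among the members, Fstl3 in control replicate 4 was at 0.756 CPM, where the other controls had 0.323 to 0.393 CPM, a difference of 12 counts against 4 to 6. Tcap in knockout replicate 3 was at 1120 CPM against 675 to 709 CPM in the other knockouts. Tgif1 in control replicate 1 was at 4.85 CPM against 6.48 to 6.74 CPM in the other controls. Eng in knockout replicate 3 was at 34.6 CPM against 36.7 to 36.9 CPM in the other knockouts.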

How the results depend on the processing

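With library totals alone the numbers of all genes were 8498 higher and 873 lower, those of the members 3 higher (Fst, Smad2 at 0.83 and Smad7 at 0.93 on the log2 scale) and those of the pathway lists 35 higher and 8 lower, and the log2 fold change of Fstl3 turned to 0.44. With single libraries left out it ran from -0.35 to 0.15, and it turned without control replicate 4 (0.15) and without the 2 controls with the highest tendon marker sums (0.15), where 0 members were higher. With each library left out in turn, 0 to 1 members were higher and 6 lower, with 2596 to 3005 genes higher and 2600 to 2937 lower over all genes and 11 to 13 higher and 27 to 34 lower in the lists. Mstn, Acvr1b, Acvr2b and Smad3 kept their direction and call in all 17 alternatives, and RLE and upper-quartile factors, the CPM filter, DESeq2, robust dispersion and the removal of abundant genes changed no call of a member. The rise of Fbxo30 was lost in 10 of 17 alternatives. The CPM filter left Fstl3 with no value.

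The replicate numbers were not taken to pair the samples, since no label ties them and the deviations of same-numbered libraries correlated at 0.118, 0.0031, 0.42 and 0.138, with 1 of the 4 values under 0.1. With the replicate number as a block, 3215 genes were higher and 2908 lower, with 1 member higher and 6 lower and 13 list genes higher and 34 lower. As a hint from the data and not the design, 3 of 4 control and 3 of 4 knockout libraries correlated best with their own number. Depth limits Fstl3, Inhba, Wfikkn1, Gdf5 and Gdf6, and also Tgif2 and Tmeff1 in the controls and Cdkn2b in the knockouts. These have few counts.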

Other observations

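Ubiquitin ligases that act in muscle atrophy, several of them known to answer to Smad and FoxO signals, were read as a further list of 6 genes, of which 1 was higher and 2 lower in the knockouts (median log2 fold change -0.38). In this list 50% passed, against 44.7% of all genes. Fbxo32, the ligase atrogin-1, was at 531 to 898 CPM in control libraries and 265 to 467 CPM in the knockouts (log2 fold change -1.04, SE 0.21, edgeR with Benjamini-Hochberg adjustment, adjusted p = 0.0018). Fbxo31 fell from 190 to 105 CPM (-0.85, SE 0.16, adjusted p = 0.0010). Both falls did not pass without control replicates 3 and 4 (adjusted p = 0.022 and 0.012) or with library totals alone (0.091 and 0.37). Fbxo30, the ligase MUSA1, which BMP signalling holds down in muscle, overlapped at 22.2 to 26.9 CPM and 26.5 to 37.0 CPM (0.43, SE 0.11, adjusted p = 0.0072), and its call was lost without any 1 of 6 libraries (adjusted p up to 0.034), all but control replicate 3 and knockout replicate 2. Trim63, the ligase MuRF1, chosen after its values were seen, was at 431 to 490 CPM in control libraries and 211 to 379 CPM in the knockouts and did not pass (-0.63, SE 0.18, adjusted p = 0.012), though it did by DESeq2 (-0.67, adjusted p = 0.00075), with RLE factors (0.0096), with the replicate block (0.0093) and without knockout replicate 3 (-0.82, 0.0022).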
